A study of Apis mellifera with 6 samples.

Results

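The 94 genes described here differed at least 4-fold among midguts of honey bees kept at 35 °C. They were selected on the deposited values. A gene was taken in where its mean over the 3 midguts at 35 °C was at least 100 normalized counts, its highest value there was at least 4 times its lowest, and the range of its values at 35 °C overlapped that at 45 °C. The 100 genes with the highest mean at 35 °C and some named families and genes, such as the cytochrome P450 genes, were left out. Of 10151 genes listed, 7259 had a mean of at least 100 at 35 °C and 108 of these reached the 4-fold ratio. The overlap condition set aside 13 of the 108 and the names 1 more, which left 94, or 1.29% of the 7259.

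Poly(A)-selected RNA of single midguts of Apis mellifera was sequenced in 6 libraries, 3 from bees held at 45 °C for 4 h and 3 from bees held at 35 °C, with sucrose solution containing 0.5% DMSO given to both groups. The bees came from the landing boards of outbred colonies, with 1 colony per experiment by the methods, which do not say whether the libraries taken over count as the same experiment. No source used here gives their age. The labels mark the 35 °C libraries, and none of those at 45 °C, as taken over from another series, so that series and temperature cannot be told apart. The methods list a 24 h feeding with DMSO for other control bees, and the feeding time of the libraries taken over is therefore unclear.

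The midgut is where an adult bee digests and absorbs pollen and nectar. It is lined by a single layer of enterocytes that secrete digestive enzymes and the peritrophic membrane, with dividing stem cells at the base of the layer and scattered enteroendocrine cells that release peptide hormones. It is also a site of immune defence, where antimicrobial peptides are made against microbes that arrive with the food.

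A normalized count is the number of reads on a gene divided by the size factor of its library, and 1 read was worth between 0.846 and 1.231 normalized counts. Reads on the listed genes numbered 24690115 to 26921417 per library at 45 °C and 23305758 to 26279130 per library at 35 °C. At this depth the spread of the 94 genes was larger than counting error: for every one of them the highest and the lowest library at 35 °C had separate 95% Poisson intervals, and the bounds facing each other were at least 2.71-fold apart. These intervals cover counting error only. The selection, with its mean of at least 100 and ratio of at least 4, all but fixed this outcome. The separation is therefore a description and no test. The lowest library at 35 °C had a median of 90.5 reads over the 94 genes, and 32 genes had under 50 reads there. With midguts as bulk samples, fewer cells of a type and less RNA per cell cannot be told apart.

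Most of the 94 genes had modest levels. Their means at 35 °C ran from 101 to 17251 normalized counts with a median of 387, 53 of them lay under 500 and 10 were at least 5000. The ratio of highest to lowest value at 35 °C, which the selection used, had a median of 6.50, against 1.28 over the 7259 genes. No single midgut carried the high values. At 35 °C, replicate 1 was highest for 36 genes, replicate 2 for 34 and replicate 3 for 24, and replicate 1 was lowest for 44, replicate 2 for 25 and replicate 3 for 25. Over the 7259 genes, replicates 1, 2 and 3 were highest for 50.9%, 26.5% and 22.6% and lowest for 34.6%, 33.8% and 31.6%. On a log scale, the middle midgut was nearer to the lowest in 40 genes, so that 1 midgut stood above the other 2, and nearer to the highest in 54 genes, so that 1 midgut stood below them.

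Replicate 1 at 35 °C was the midgut most often apart. It was the highest or the lowest for 85.1% of the 94 genes, and it was so for 85.5% of the 7259 genes too. In 46 of the 94 genes it stood alone while the other 2 midguts were within 2-fold of each other, above them in 19 and below them in 27. Replicate 2 stood alone in this way in 16 genes and replicate 3 in 9. The same was not counted over the 7259 genes, so nothing particular to the 94 is read from it. Without replicate 1 the conditions took in 21 genes, of which 19 were among the 94. Without replicate 2 they took in 53 genes, 50 of them shared, and without replicate 3 they took in 67, with 64 shared. The ratio of 2 midguts cannot exceed that of 3, so a fall in these numbers is built in.

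**Figure D1:**
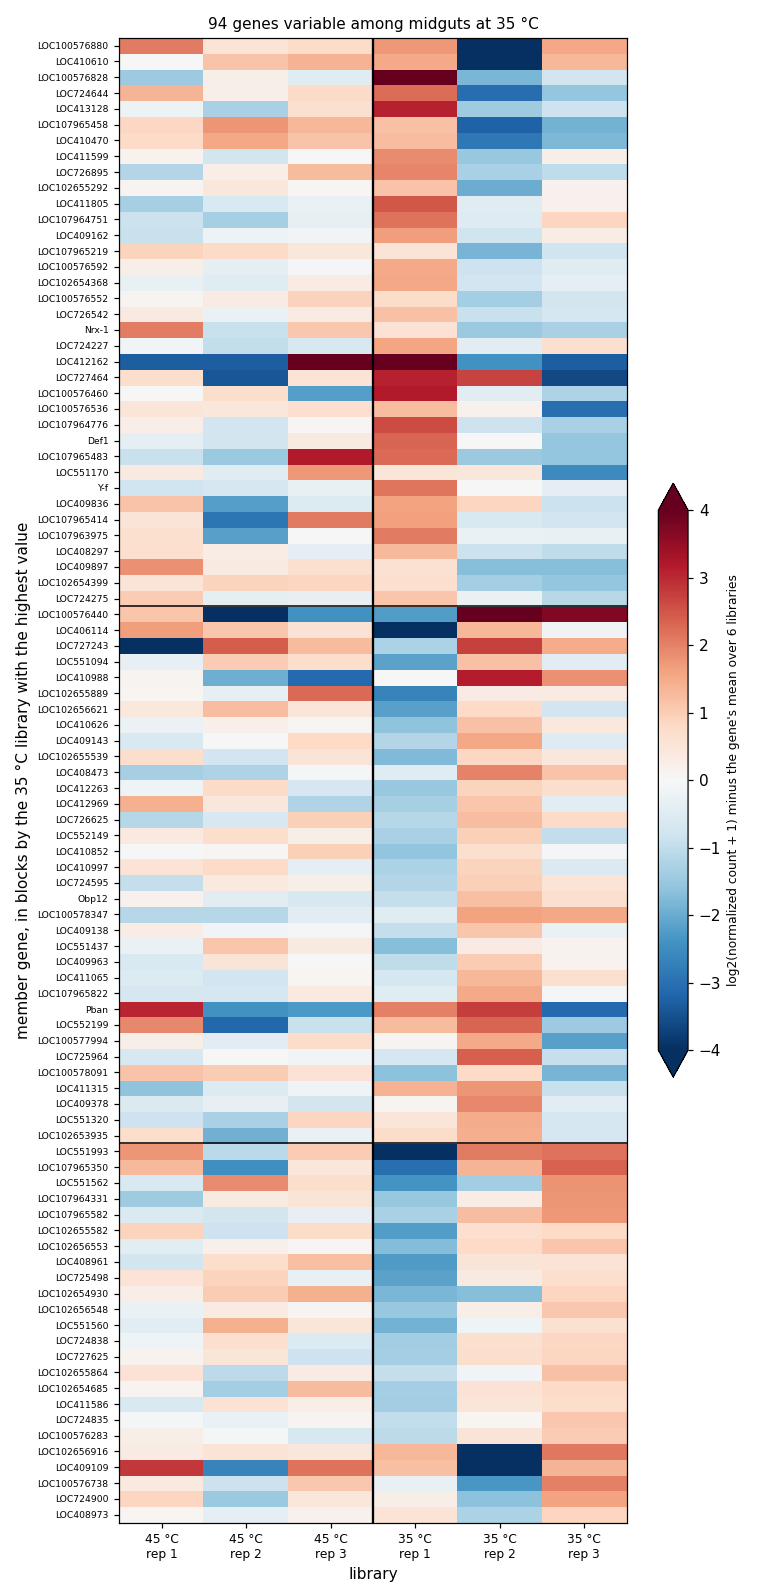
Each line is 1 of the 94 genes and each column 1 midgut, 3 at 45 °C on the left and 3 at 35 °C on the right. Colour gives log2(normalized count + 1) minus the mean of the gene over the 6 midguts, red above and blue below, and black lines part the 36 genes highest in 35 °C replicate 1, the 34 highest in replicate 2 and the 24 highest in replicate 3.

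Of the 94 genes, 5 carry a symbol other than a locus number in the files. Def1 encodes defensin 1, an antimicrobial peptide of the innate immune response. It had 40.6, 31.8 and 69.0 normalized counts at 45 °C, against 276, 52.5 and 17.7 at 35 °C. Replicate 1 at 35 °C stood above all 5 other midguts and replicate 3 at 35 °C stood below them, so the range at 45 °C lay inside that at 35 °C, which was 15.6-fold. The log2 fold change of 45 °C over 35 °C was -0.51 with a standard error of 0.88.

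Pban encodes the precursor of the pheromone biosynthesis-activating neuropeptide, which belongs to the pyrokinin family of insect peptide hormones. Its values were 1133, 25.0 and 27.0 normalized counts at 45 °C, against 559, 936 and 15.0 at 35 °C. Among the 6 midguts 3 were high and 3 were low, with the high ones at both temperatures, and the ratio of highest to lowest was 45.3 at 45 °C and 62.4 at 35 °C. In the gene table Pban overlaps LOC724517, which had 3569, 2825 and 3129 normalized counts at 45 °C and 1060.3, 1378 and 1272 at 35 °C. The use of strand in counting is not given, so reads of this pair could have been divided wrongly. LOC724517 itself did not show the high and low midguts of Pban.

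Genes of 2 other peptide hormones of gut and brain were in the marker lists. Tk, the tachykinin precursor, had 77.6, 82.9 and 68.0 normalized counts at 45 °C and 164, 148 and 174 at 35 °C. Apime-ASTA, the allatostatin A precursor, had 459, 323 and 163 at 45 °C and 340.4, 452 and 308 at 35 °C. The ratio of highest to lowest at 35 °C was 1.17 for Tk and 1.47 for Apime-ASTA, and neither had the wide gap of Pban. The midguts high in Pban were also the highest for Apime-ASTA, at 459, 340.4 and 452, the last of these ranks being close to the 323 of another midgut. Other genes of the same marker list did not share this order. Tk was highest, at 174, in a midgut low in Pban. Syt1 had 98.5, 70.4 and 55.0 at 45 °C and 35.4, 38.1 and 81.2 at 35 °C, lowest in midguts high in Pban. A link between these genes was not tested.

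Nrx-1 encodes neurexin 1, a synaptic adhesion protein of neurons. It had 652, 84.1 and 331 normalized counts at 45 °C, against 237, 55.8 and 63.6 at 35 °C, a ratio of 7.76 at 45 °C and 4.24 at 35 °C. Replicate 1 was the highest midgut at each temperature, and replicate 2 was the lowest at each. Nrx-1 overlaps LOC102655788, which had 4453, 2274 and 6346 normalized counts at 45 °C and 8040.1, 2726 and 2234 at 35 °C, so its count is uncertain in the same way. NLG-3, a neuroligin gene whose product belongs to the family of neurexin partners, had 193, 236 and 197 at 45 °C and 78.3, 126 and 131 at 35 °C, a ratio of 1.67 at 35 °C.

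Obp12 encodes an odorant binding protein, one of a family of small secreted carriers of hydrophobic ligands. Its values were 183, 123 and 105 normalized counts at 45 °C, against 84.9, 378 and 256 at 35 °C. Replicate 1 at 35 °C was the lowest of the 6 midguts and the other 2 at 35 °C were the highest, a ratio of 4.46. Obp9, a related gene with a wider ratio of 7.18 at 35 °C, was left out because its ranges were apart, with 119, 96.6 and 223 at 45 °C and 1768, 246 and 303 at 35 °C. There replicate 1 was the highest midgut, opposite to Obp12. Obp10 and Obp11 had ratios of 1.61 and 1.32 at 35 °C, and Obp3, Obp13 and Obp21 lay under the mean of 100.

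Y-f belongs to the yellow family. In Drosophila melanogaster, yellow-f acts in the synthesis of melanin. The bee gene had 96.0, 105 and 135 normalized counts at 45 °C, against 739, 163 and 127 at 35 °C, and replicate 1 at 35 °C stood alone above the other 5 midguts with a ratio of 5.81. With a log2 fold change of -1.16 and a standard error of 0.60, Y-f was not past the threshold (limma, adjusted p = 0.162). Another gene of the family, Y-y, showed no such midgut, with 135, 118 and 143 at 45 °C and 8.39, 4.23 and 6.18 at 35 °C.

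**Figure D2:**
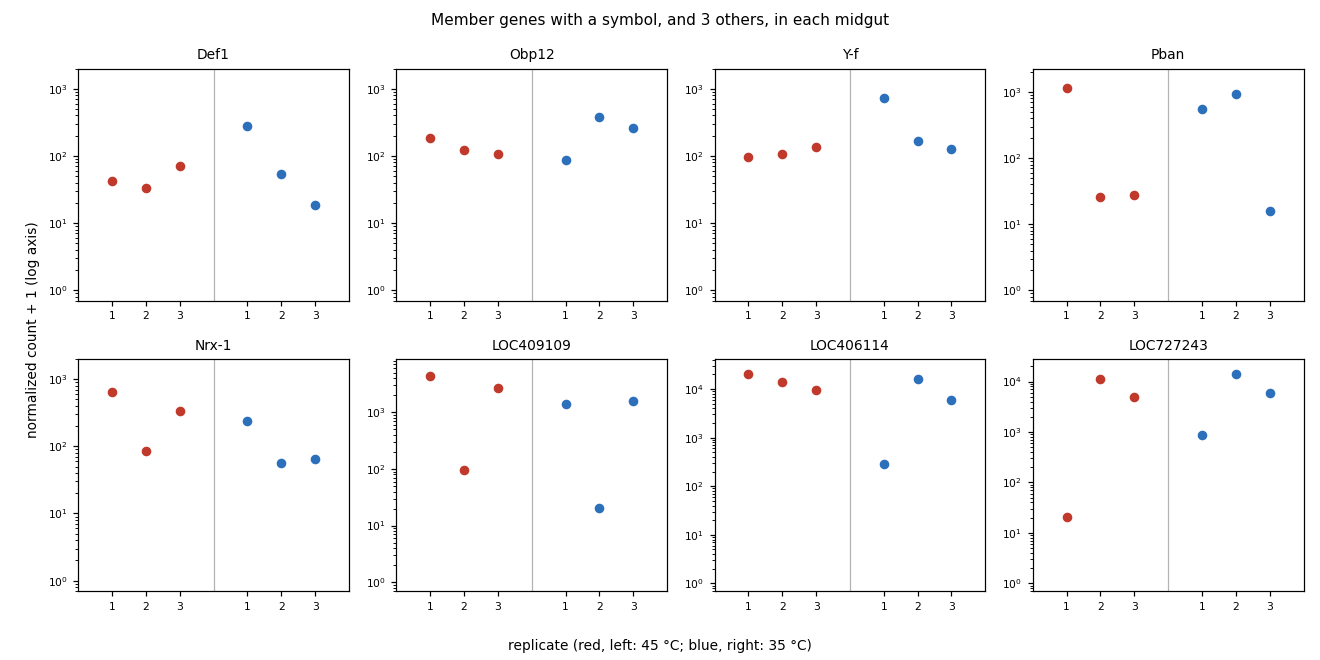
Normalized count + 1 on a log axis in each midgut, 45 °C in red on the left and 35 °C in blue on the right of each panel, for the 5 genes with a symbol and for LOC409109, LOC406114 and LOC727243. Pban and LOC409109 have midguts at both levels at both temperatures, while Def1 and Y-f have their highest value in replicate 1 at 35 °C.

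The largest ratios belonged to genes that were nearly or fully without reads in some midguts. Of the 94 genes, 9 had 3 reads or fewer in at least 1 of the 6 libraries. Over the 7259 genes there were 14, or 0.193%. Since the mean at 35 °C had to be at least 100, a gene near 0 at 35 °C could only enter with a wide ratio, so its share among the 94 follows from the selection and nothing is read from it. The low library was at 45 °C in 5 of these genes and at 35 °C in 6, with LOC412162 and LOC727464 low at both. With a limit of 10 reads, chosen after the data had been seen, there were 12.

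LOC551993 had no read in replicate 1 at 35 °C. Its values were 209, 28.4 and 122 normalized counts at 45 °C, against 0, 256 and 274 at 35 °C, and its highest midgut at 35 °C was at least 97.8-fold above the lowest when the floor was set to 3 reads in that library. All 3 midguts at 45 °C held the transcript.

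LOC412162 was present in 1 midgut of each temperature. It had 0, 0 and 738 normalized counts at 45 °C, against 689, 0.846 and 0 at 35 °C, where 0.846 is 1 read. The 2 high midguts had 738 reads at 45 °C and 739 reads at 35 °C. The other 4 midguts held 1 read in all, and no fold change between temperatures is given for this gene.

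In 4 genes the lowest midgut at 35 °C held 1 read. LOC100576880, annotated as a long non-coding RNA (lncRNA), had 785, 274 and 310.1 normalized counts at 45 °C, against 613, 0.846 and 545 at 35 °C. Replicate 2 at 35 °C alone was low, 724-fold under replicate 1 (95% counting interval 129 to 28639.6). LOC410610 had 75.1, 166 and 197 at 45 °C, against 216, 0.846 and 191 at 35 °C, a ratio of 256 (45.4 to 10141). LOC102656916 had 61.6, 72.7 and 67.0 at 45 °C, against 124, 0.846 and 215 at 35 °C, a ratio of 254 (45.1 to 10055). For these 3 genes the near absence was in the same midgut, replicate 2 at 35 °C, and all other midguts had 50 reads or more.

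LOC727464 was near absent in 1 midgut of each temperature, with 36.9, 1.14 and 33.0 normalized counts at 45 °C, against 193, 151 and 0.883 at 35 °C. The ratio at 35 °C was 219 (95% counting interval 38.8 to 8676). The low midguts were replicate 2 at 45 °C and replicate 3 at 35 °C, each with 1 read.

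LOC100576440 had 56.6, 0 and 4.00 normalized counts at 45 °C, against 4.66, 664 and 345 at 35 °C. Replicates 2 and 3 at 35 °C were high and the other 4 midguts were low, with a ratio of 142 at 35 °C. LOC552199 had 146, 3.41 and 20.0 at 45 °C, against 93.3, 197 and 13.2 at 35 °C. LOC410988 had 35.7, 7.95 and 3.00 at 45 °C, against 33.6, 299.6 and 120.1 at 35 °C. For LOC410988 the lowest of the 35 °C values lay just under the highest of the 45 °C values, by which it met the overlap condition.

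**Figure D3:**
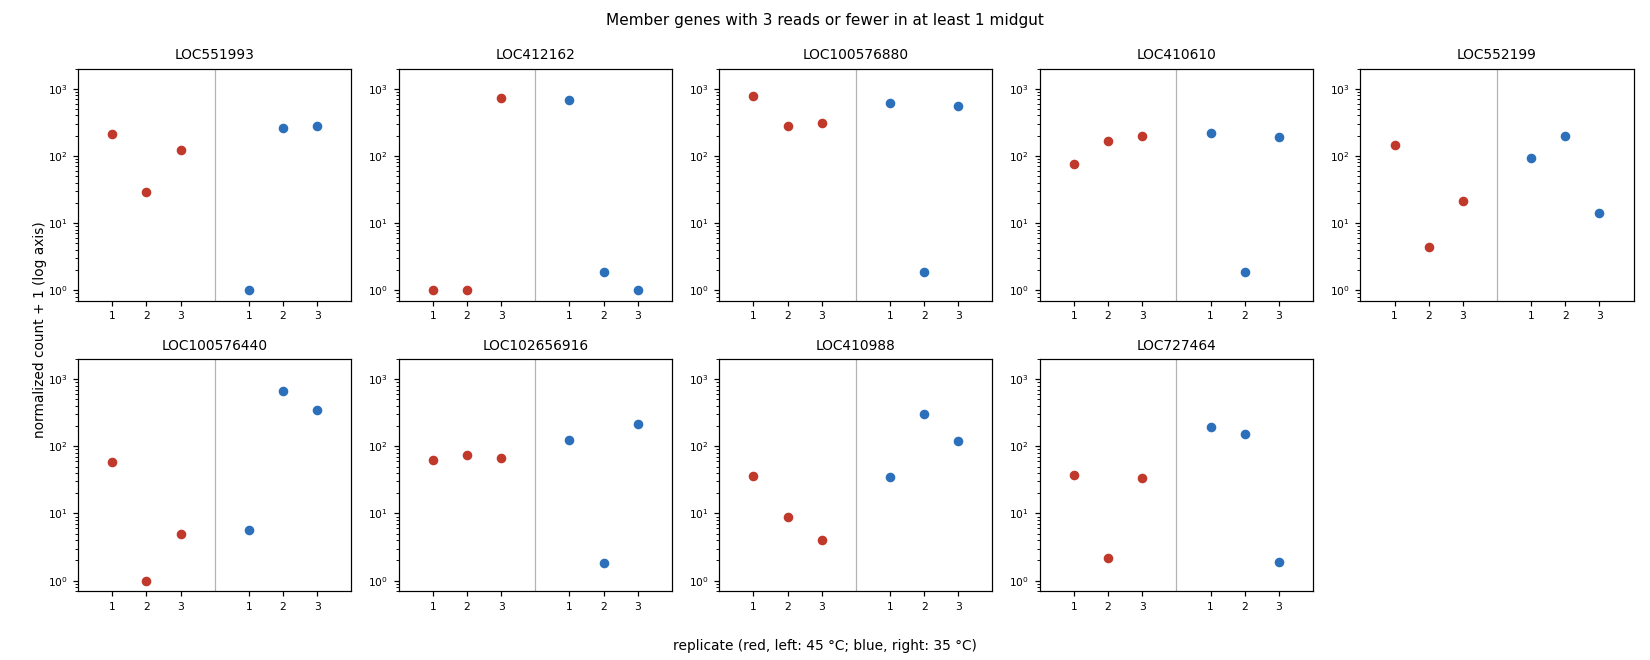
Normalized count + 1 on a log axis in each midgut for the 9 genes with 3 reads or fewer in at least 1 library, 45 °C in red on the left and 35 °C in blue on the right of each panel, so that a value of 0 is drawn at 1. In LOC100576880, LOC410610 and LOC102656916 replicate 2 at 35 °C alone is near 0, and in LOC412162 1 midgut of each temperature is high.

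The genes LOC409109 and LOC100576828 completed the 10 with the largest ratios, together with Pban. LOC409109, with 4378, 94.3 and 2728 normalized counts at 45 °C, against 1415, 19.5 and 1569 at 35 °C, was low in replicate 2 of each temperature. Its ratio was 46.4 at 45 °C and 80.6 at 35 °C and rested at 35 °C on 23 reads in the lowest midgut. LOC100576828 had 12.3, 42.0 and 25.0 at 45 °C, against 697, 9.31 and 21.2 at 35 °C, where replicate 1 at 35 °C stood alone above the other 5 midguts with a ratio of 74.8 that rested on 11 reads in the lowest midgut. LOC409109 and LOC100576828 thus differed in shape, the first with low midguts at both temperatures and the second with 1 high midgut.

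LOC406114 was among the highest-expressed of the 94 genes, with 20740.1, 13687 and 9638 normalized counts at 45 °C, against 282, 16287 and 5917 at 35 °C. Replicate 1 at 35 °C was low, and the remaining 5 midguts lay between 5917 and 20740.1. Its ratio was 2.15 at 45 °C and 57.8 at 35 °C. LOC727243 had 19.7, 11255 and 5039 at 45 °C, against 873, 14005 and 5849 at 35 °C, with a low replicate 1 at each temperature. Its ratio of 571 at 45 °C was wider than the 16.0 at 35 °C by which it was selected.

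The other 8 of the 10 genes with the highest mean at 35 °C had ratios there from 4.10, in LOC409963, to 6.96, in LOC725498. LOC409963 had 9292, 20261 and 13968 normalized counts at 45 °C, against 7095, 29082 and 15574 at 35 °C, and LOC410626 had 6442, 8826 and 7899 at 45 °C, against 2485, 17159 and 10319 at 35 °C. LOC725498 had 13301, 16887 and 7437 at 45 °C, against 2092, 11669 and 14552 at 35 °C. In these 3 genes, replicate 1 at 35 °C was the lowest of the 6 midguts. LOC409162 had 3968, 6392 and 6876 at 45 °C, against 23605, 4216 and 9128 at 35 °C. LOC107963975 had 8483, 1196 and 5552 at 45 °C, against 22937, 4514 and 4432 at 35 °C, and LOC100576592 had 4571, 2942 and 3761 at 45 °C, against 11190.1, 2188 and 2782 at 35 °C. In LOC409162, LOC107963975 and LOC100576592 the same midgut was instead the highest of the 6. LOC102653935, with 5805, 944 and 2977 at 45 °C and 6004, 9896 and 2257 at 35 °C, had its highest midgut in replicate 2 at 35 °C and its lowest in replicate 2 at 45 °C. The remaining gene of the 10, LOC100578347, passed the comparison of temperatures and is described with it.

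The spread of the 94 genes at 45 °C was used in the selection only through the overlap of ranges. The ratio of highest to lowest value at 45 °C had a median of 2.40 over the 94 genes, against 1.28 over the 7259. It was at least 4 in 26 of the 94 genes (27.7%), against 92 of the 7259 (1.27%). Among genes with a mean of 100 to 500 at 35 °C it was at least 4 in 18 of 53 (34.0%), against 1.84% of 3099, and among those with a higher mean in 8 of 41 (19.5%), against 0.841% of 4160. Without the overlap condition, 107 genes were taken in and 27 of them (25.2%) had such a ratio at 45 °C. These are counts over genes of the same 3 midguts and carry no test.

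Most of the 94 genes were steadier at 45 °C than at 35 °C, an order that the selection on the spread at 35 °C favours. With counts under 3 reads set to 3 reads, the ratio was wider at 45 °C in 12 genes and wider at 35 °C in 82. In 33 genes the ratio at 45 °C was under 2, and in 44 genes the range at 45 °C lay wholly inside that at 35 °C. The lowest ratio at 45 °C, 1.15, was that of LOC100576536, which had 160.0, 158 and 182 normalized counts at 45 °C, against 269, 129 and 13.2 at 35 °C. Among the genes with more than 3 reads in every midgut, the widest ratios at 45 °C were those of LOC727243, LOC409109 and Pban. At 45 °C the lowest midgut was replicate 2 in 44 of the 94 genes, replicate 1 in 33 and replicate 3 in 17. The counts by lowest midgut, of ratios under 2 and of ranges inside were not taken over the 7259 genes. Nothing particular to the 94 is therefore read from them.

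**Figure D4:**
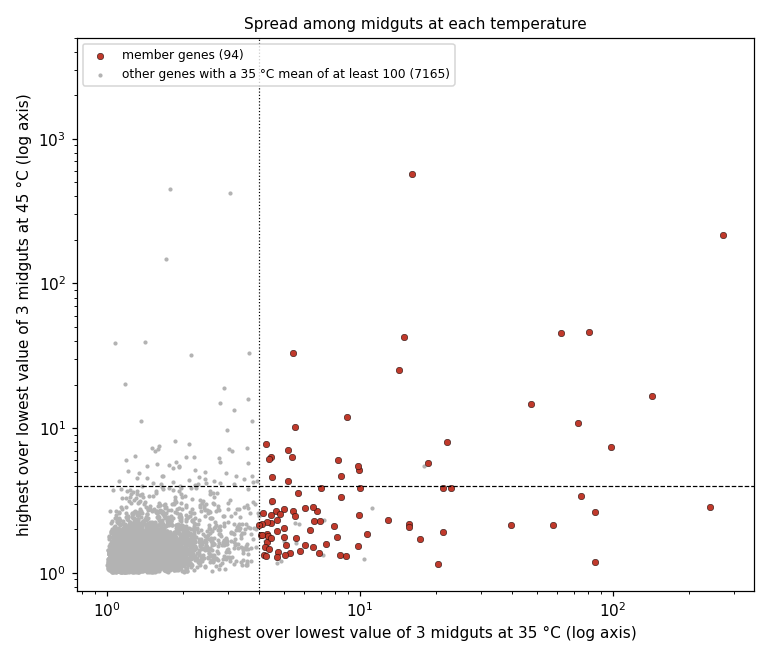
Ratio of the highest to the lowest of 3 midguts at 35 °C (x axis) and at 45 °C (y axis), both on log axes, for the 94 genes in red and the 7165 other genes with a mean of at least 100 at 35 °C in grey, with counts under 3 reads set to 3 reads. The dotted line is the ratio of 4 that the selection used at 35 °C, and 26 red points lie at or above the dashed line, a ratio of 4 at 45 °C.

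Genes annotated as lncRNA made up 15 of the 94 (16.0%), against 216 of the 7259 (2.98%), and protein-coding genes 67 (71.3%), against 93.4%. A further 11 genes were not found in the gene table (11.7%, against 3.46%), and LOC408297 is annotated as a miscellaneous RNA. Within means of 100 to 500 at 35 °C, 13 of 53 genes were lncRNAs (24.5%, against 5.29% of 3099), and at higher means 2 of 41 were (4.88%, against 1.25% of 4160). Long non-coding RNAs are transcripts with no long open reading frame, and the functions of most insect lncRNAs are not known.

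The 15 lncRNAs had means of 102 to 1437 normalized counts at 35 °C, and 13 of the 15 lay under 500. Their ratios had a median of 2.06 at 45 °C, with 3 genes at 4 or more, and a median of 8.14 at 35 °C, where they ran from 4.27 to 724. Replicate 1 at 35 °C was highest for 7 of them, replicate 3 for 6 and replicate 2 for 2. LOC107965483, LOC107965350 and LOC107965414 were the 3 that also reached 4 at 45 °C.

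LOC107965483 had 187, 125 and 3134 normalized counts at 45 °C, against 1688, 125 and 118 at 35 °C. One midgut of each temperature was high and the other 4 were alike, between 118 and 187. LOC107965350 had 166, 11.4 and 93.0 at 45 °C, against 7.46, 175 and 352 at 35 °C, with 1 low midgut in each group. LOC107965414 had 165, 14.8 and 492 at 45 °C, against 364, 75.3 and 67.1 at 35 °C. All 3 overlap another listed gene, and LOC107965483 stood at 0.000864 to 0.0243 of the level of LOC410492, the gene it overlaps, so its count is uncertain.

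The other lncRNAs had ratios under 4 at 45 °C. LOC107964776 had 70.2, 34.1 and 61.0 normalized counts at 45 °C, against 359, 32.2 and 23.0 at 35 °C, and LOC102655292 had 387, 493 and 379 at 45 °C, against 797, 90.5 and 401 at 35 °C. LOC102654399, with 279, 359 and 350.1 at 45 °C, against 307, 74.5 and 65.3 at 35 °C, had 1 midgut at 35 °C on the level of those at 45 °C and 2 far under it. LOC102656621, with 208, 369 and 218 at 45 °C, against 33.6, 273 and 90.1 at 35 °C, was low in replicate 1. LOC102655292, LOC102654399 and LOC102656621 overlap another listed gene as well. Also lowest in replicate 1 were LOC107965582, LOC102656553, LOC100576283 and LOC102655864, in which replicate 3 was the highest midgut at 35 °C.

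Some of the 94 genes kept a nearly fixed proportion to another gene over all 6 midguts. For each of the 4371 pairs among the 94, the ratio of one gene to the other was taken in every midgut after 1 was added to both counts, and its highest value was divided by its lowest. The ratios printed are of the counts themselves. The median of this spread was 34.1. The pairs described were chosen for a low spread or for their place in the genome, after their values were seen, and no test goes with them.

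LOC410470 had 2023, 3453 and 2625 normalized counts at 45 °C, against 2791, 162 and 343 at 35 °C. LOC107965458 had 3281, 6229.5 and 4603 at 45 °C, against 4180.4, 196 and 497 at 35 °C. Both were low in replicates 2 and 3 at 35 °C and high in the other 4 midguts, and the ratio of LOC410470 to LOC107965458 stayed between 0.554 and 0.823, a spread of 1.49. LOC107965458 was not found in the gene table, so how the 2 genes lie to each other is not given. The tightest pair of all, LOC412263 and LOC724838, had a spread of 1.34. LOC412263 had 191, 360.1 and 134 at 45 °C, against 73.7, 400.3 and 345 at 35 °C, and LOC724838 had 1706, 3078 and 1321 at 45 °C, against 738, 3014 and 3481 at 35 °C. Both were lowest in replicate 1 at 35 °C, and their ratio stayed between 0.0992 and 0.133.

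Neighbours in the genome were among the pairs described, and not all of them kept a nearly fixed proportion. RefSeq's table for assembly Amel_HAv3.1 placed 82 of the 94 genes on a linkage group or scaffold. All 16 linkage groups held some of them, and 4 pairs lay next to each other. The lncRNAs LOC102655582 and LOC102655539 had a spread of 1.74. LOC102655582 had 193, 57.9 and 174 normalized counts at 45 °C, against 21.4, 168 and 181 at 35 °C, and LOC102655539 had 351, 126 and 303 at 45 °C, against 62.5, 377 and 294 at 35 °C. Both were lowest in replicate 1 at 35 °C and next lowest in replicate 2 at 45 °C. Reads of both could also be shared with LOC410649, which they overlap.

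LOC107964751, a lncRNA, and its neighbour LOC411599, a protein-coding gene, were both highest in replicate 1 and lowest in replicate 2 at 35 °C. LOC107964751 had 334, 243 and 483 normalized counts at 45 °C, against 2755, 432 and 1123 at 35 °C. LOC411599 had 999.6, 539.6 and 886 at 45 °C, against 3347, 314 and 1048 at 35 °C. Their ratio ranged from 0.334 to 0.545 at 45 °C and from 0.823 to 1.38 at 35 °C, so the 2 temperatures did not overlap in it. The spread of this pair was 4.12. The other neighbouring pairs, LOC726895 with LOC100576552, which overlap, and LOC410626 with the lncRNA LOC107965582, had spreads of 5.58 and 4.69. Pairs with 1 to 3 genes between them had spreads of 4.18 to 545.

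In all, 27 of the 94 genes overlap another listed gene in the gene table, and their counts are uncertain where reads could fall on both. The share over all genes was not counted, so nothing particular to the 94 is read from it. The gene table differs from the build on which reads were counted, where these overlaps may differ. LOC410997 and the gene it overlaps, LOC410996, moved together most closely. LOC410997 had 1607, 1894 and 862 normalized counts at 45 °C, against 465, 2066 and 741 at 35 °C, and LOC410996 had 4780.3, 5041 and 2739 at 45 °C, against 1499, 5587 and 2517 at 35 °C. The ratio of LOC410997 to LOC410996 stayed between 0.294 and 0.376, a spread of 1.28. Pban and LOC724517, at a spread of 75.9, were far from this.

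**Figure D5:**
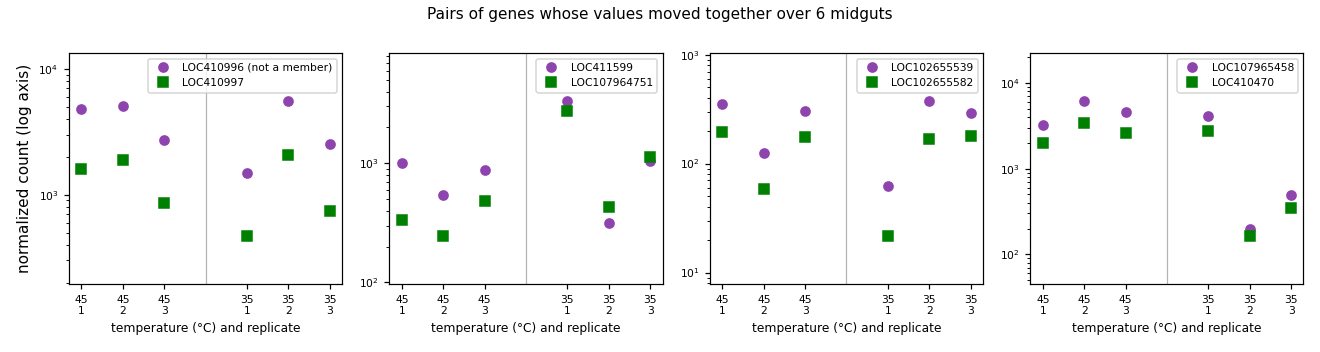
Normalized counts on a log axis in each midgut for 4 pairs of genes, 45 °C left of the grey line and 35 °C right of it, with one gene of each pair as circles and the other as squares. LOC410470 and LOC107965458 fall together in replicates 2 and 3 at 35 °C, and LOC410996, which is not among the 94, runs above LOC410997 in every midgut.

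In the comparison of temperatures, the overlap of ranges was part of the selection. With limma on log2(normalized count + 1) over all genes, where a call needed an adjusted p below 0.05 and a change of more than 1 on the log2 scale, 0 of the 94 genes were higher at 45 °C, against 1327 of 10151 genes (13.1%). Lower at 45 °C were 2 of the 94, against 501 genes (4.94%). Of the 94, 46 had a fold change above 0 and 48 below, with a median log2 fold change of -0.05, against -0.01 over all genes. The median standard error was 0.71 for the 94 genes and 0.21 for all genes. Although 38 of the 94 had an absolute log2 fold change above 1, 12 had an unadjusted p below 0.05. These counts and the split by sign were not taken over all genes, so nothing particular to the 94 is read from them. Neither edgeR nor DESeq2 called any of the 94 higher, while they called 1333 and 1379 of all genes higher. As the contrast was used in the selection, these counts are a description.

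LOC100578347, one of the 2 lower genes, had 2059.6, 2055 and 3358 normalized counts at 45 °C, against 3241, 13909.9 and 13280.3 at 35 °C. Replicate 1 at 35 °C lay among the midguts at 45 °C and the other 2 at 35 °C were far above all 4. On the log2 scale it fell by 1.80 with a standard error of 0.54 (limma, adjusted p = 0.0323). The adjusted p was 0.000894 without replicate 1 at 35 °C and between 0.0501 and 0.0931 without any other library, so the call needed each of the other 5. The log2 fold change without these ran from -2.03 to -1.44. The other gene, LOC410988, fell by 3.30 on the log2 scale with a standard error of 0.97 (limma, adjusted p = 0.031). It kept the call without replicate 1 at either temperature and lost it without any of the other 4 libraries, with adjusted p between 0.0779 and 0.0927 and log2 fold changes from -3.22 to -2.56. Without a trend in the variance both calls were lost, at adjusted p = 0.0586 for LOC100578347 and 0.0519 for LOC410988.

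Many calls among the 94 genes changed when 1 midgut was left out. The 94 were chosen for their spread at 35 °C, which favours such changes, and nothing is read from them. Without replicate 2 at 45 °C, Nrx-1 was higher and no gene lower, and without replicate 1 or 3 at 45 °C no gene was higher and 1 was lower. Over all genes, 1177 to 1254 were higher and 382 to 545 lower with 1 midgut at 45 °C left out. Without replicate 1 at 35 °C, 8 of the 94 genes were higher and 8 lower, among them LOC410470 and LOC107965458 as higher and Obp12 as lower. Of all genes, 1309 were then higher and 492 lower. Without replicate 2 at 35 °C there were 4 of the 94 higher and 4 lower, and without replicate 3 there were 2 higher and 1 lower. Of all genes, 1220 were higher and 442 lower without replicate 2 at 35 °C, and 1183 and 431 without replicate 3. DESeq2 on the recovered reads called 9 of the 94 lower, Y-f and LOC107964751 included, and edgeR called 4. Of all genes, DESeq2 called 533 lower and edgeR 496. Scaling by library size alone called 0 of the 94 higher and 5 lower, while 829 of all genes were higher and 1616 lower and the median gene stood at -0.39 on the log2 scale. Quantile normalization, with the median gene at -0.15, called 0 of the 94 higher and 3 lower, and 1080 of all genes higher and 804 lower.

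At the edge of the selection the values ran on without a gap. The last genes taken in were LOC107965822, LOC411065 and LOC724227, with ratios of 4.00, 4.05 and 4.09. LOC107965822 had 89.9, 88.6 and 188 normalized counts at 45 °C, against 102, 407 and 137 at 35 °C. Just outside were LOC411099 (4.00 when rounded), LOC411345 (3.94) and LOC102656066 (3.92). LOC411099 had 2340.3, 5810.4 and 4331 at 45 °C, against 1725, 6894 and 4778 at 35 °C.

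Genes listed as markers of fat body, head glands, muscle, epidermis, hemocytes, and neurons and enteroendocrine cells were present in every midgut. Enteroendocrine cells belong to the midgut itself. Fat body genes (5 of 5 listed, the storage protein genes Vg, Hex70a, HEX70b, Hex70c and Hex110) summed to 923 to 1405 normalized counts at 45 °C and to 643 to 834 at 35 °C. Vg, the vitellogenin gene, had 84.9, 342 and 505 at 45 °C, against 5.60, 87.2 and 13.2 at 35 °C, a ratio of 15.6 among the midguts at 35 °C, while those of Hex70a, HEX70b, Hex70c and Hex110 were 1.66, 1.46, 4.58 and 1.55. The Vg ratio rested on the 5.60 in replicate 1, where 3 reads were worth 2.80 normalized counts. The fat body genes did not move as one between temperatures, with a log2 fold change of 3.60 in Vg, 1.66 in Hex110, 0.18 in Hex70a, 0.00 in Hex70c and -0.91 in HEX70b. Head gland genes (4 of 11 listed) summed to 3221 to 4180.4 at 45 °C and to 2515 to 4290.2 at 35 °C, and troponin genes of muscle (7 of 7) to 5869 to 7069 at 45 °C and to 4676 to 7647 at 35 °C. Cuticle genes of the epidermis (11 of 11) summed to 2455 to 3301 at 45 °C and to 1439 to 1823 at 35 °C. The sums of the fat body, head gland, muscle and epidermis genes were each the lowest of the 6 midguts in replicate 1 at 35 °C. They hide genes that were not lowest in that midgut, such as Hex70a at 277, TpnCIIIa at 719.9 and Cpap3-b at 83.0. CPF2 alone held 864 of its epidermis sum of 1439. PPO, the prophenoloxidase gene of hemocytes, ran from 97.3 to 111 at 45 °C and from 54.2 to 65.3 at 35 °C, and 3 of 4 genes of neurons and enteroendocrine cells summed to 286 to 635 at 45 °C and to 539.9 to 638 at 35 °C. The part of these tissues and cells in the spread of the 94 genes was not tested, and midgut enzymes could not be matched by name here.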

How the data were processed

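Trimming, mapping to the Amel 4.5 genome and counting of reads per gene were done by the authors. The submitters' processing notes name Trimmomatic 0.36, STAR, Subread and DESeq2. Neither strand use in counting nor the annotation release was found in the sources used here. Each deposited value (a signal, in normalized counts) is a gene count that the authors divided by its library's DESeq2 size factor, between 0.812 and 1.182. In every column 100.0% of values were whole multiples of 1 read within 0.05 of a read, so reads were recovered. Over the 6 libraries together, every gene in the tables held 61 reads or more.

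As the values are normalized counts, temperatures were compared with limma 3.58.1 (R 4.3.3, moderated with a variance trend, no block) on log2(value + 1) over all 10151 genes with a mean of at least 1, with Benjamini-Hochberg adjustment. Adding 1 understates the change of low genes. DESeq2 1.42.0 and edgeR 4.0.16 on recovered reads, other scalings, pseudocounts, filters, a replicate block and each library left out were alternatives. The tests were tested on simulated data. Each table holds a 45 °C and a 35 °C library of the same number, but no source says that a number marks a shared colony, day or batch.

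The 94 genes, the marker lists and the tests were chosen with earlier results of these data known. Genes named were the 10 with the largest ratio at 35 °C, the 10 with the highest mean at 35 °C, all lncRNAs, all genes with a symbol, and the 3 on either side of the ratio of 4, and others were chosen after their values were seen. RefSeq's gene table (Amel_HAv3.1) held 9300 of the 10151 IDs (91.6%). It differs from the build used, so no coordinates are given. It pairs no product names with IDs, so lists fixed by product name were not used.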

Additional observations from a re-analysis of the deposited data

How the results depend on the processing

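The number of genes taken in depends on its limits: 62 with a mean of at least 200, 164 with a ratio of 3, 39 with a ratio of 8, and 21 to 90 with each library left out. It was 132 with a mean of at least 50, 94 (85 shared) when scaled by library size and 93 (82 shared) after quantile normalization. Over all genes, 872 were higher at 45 °C with a mean of at least 100 over the 6 libraries. With library size alone 829 were higher, and 1177 to 1309 with each library left out. Scaling by library size alone gave 1616 lower and quantile normalization 804, and there were 382 to 545 with each library left out. Of the 94, 0 to 8 were higher and 0 to 8 lower with each library left out. With the mean of at least 100 over the 6 libraries, LOC410988 was not tested. Lower were 1 under this filter, 9 with DESeq2, 4 with edgeR, 5 with library size alone and 0 without a trend. In the same order, these settings called 359, 533, 496, 1616 and 481 of all genes lower. The cause was not tested. With the replicate number as a block, 7 of the 94 were higher and 5 lower, and 1348 and 524 of all genes. The correlations of same-numbered libraries were 0.17, 0.10 and 0.01 over 7436 genes, not every library correlated best with its own number, and the numbers were not taken to pair the midguts. The median ratio at 45 °C was 1.69 to 1.76 with each 45 °C library left out, 2.47 when scaled by library size and 2.43 after quantile normalization, alternatives chosen after seeing the data. A ratio of 2 libraries cannot exceed that of 3, so the lower values with a library left out are built in. Of the ratios of named genes, 4 moved after quantile normalization, to 288 in LOC100576880, 109.8 in LOC102656916, 105 in LOC410610 and 135 in LOC727464, each with 1 read in its lowest midgut. Depth limits the ratios of the 32 genes with under 50 reads in the lowest library.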
